A study of Homo sapiens with 4 samples.

Results

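The genes described here encode the proteins that meet double-stranded RNA in a human cell, or pass its signal on: DDX58 (also called RIGI), IFIH1, DHX58, MAVS, TLR3, TICAM1, EIF2AK2 and ADAR. They were chosen by symbol, with earlier results of these data known. All 8 were found among the 60766 features of the expression tables, each once. The libraries came from HCT116, an established human colon carcinoma cell line, and held total RNA of 2 groups. In 2 libraries ARID1A, which encodes a subunit of SWI/SNF chromatin remodellers, was lowered by a hairpin RNA (ARID1A knockdown), and 2 libraries were labelled control. The comparison was made to look for links between ARID1A and immune functions. The labels give no hairpin sequence, no description of the control construct, no number of clones and no origin of the replicates. If these share a culture, the p-values describe technical spread alone.

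Cells read double-stranded RNA through several routes. In the cytosol the helicases RIG-I (DDX58) and MDA5 (IFIH1) bind such RNA and engage the mitochondrial adaptor MAVS, which leads through the kinase TBK1 to the transcription factor IRF3 and to interferon genes, while LGP2 (DHX58) lacks the signalling domains of its relatives and tunes them. In endosomes TLR3 binds double-stranded RNA and signals through the adaptor TICAM1, also called TRIF. The kinase PKR (EIF2AK2) phosphorylates the translation initiation factor eIF2 and so slows protein synthesis, and ADAR converts adenosine to inosine within double-stranded RNA, which weakens its recognition by MDA5. Several of these sensor genes are themselves induced by interferon, a known feature of the pathway.

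Interferon-induced promoters often carry repeats of GAAA, the core of the interferon-stimulated response element, and GGGANNTTCC is a form of the site bound by NF-kB. Promoter windows of 300 bases, credited to RefSeq on build GRCh38.p14, were matched for 7 of the 8 genes (DDX58 under the symbol RIGI), and these motifs were searched on both strands. Stretches are given for each member whose window held a match, whatever its change below, and capitals mark the matched bases. These stretches are chr9:32526243-32526419 (minus strand, DDX58), chr2:162318685-162318863 (minus strand, IFIH1), chr2:37156977-37157006 (minus strand, EIF2AK2), chr4:186069132-186069161 (plus strand, TLR3) and chr19:4831803-4831852 (minus strand, TICAM1).
DDX58: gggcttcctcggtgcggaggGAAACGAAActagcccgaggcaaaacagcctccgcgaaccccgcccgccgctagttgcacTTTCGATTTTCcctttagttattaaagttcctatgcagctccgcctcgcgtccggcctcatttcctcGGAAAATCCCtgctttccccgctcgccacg
IFIH1: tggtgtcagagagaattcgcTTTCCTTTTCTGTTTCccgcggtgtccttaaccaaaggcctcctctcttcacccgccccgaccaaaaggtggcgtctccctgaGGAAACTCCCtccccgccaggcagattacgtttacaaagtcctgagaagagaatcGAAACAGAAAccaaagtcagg
EIF2AK2: gggaaggcggagtccaagggGAAAACGAAA
TLR3: cattttttttcaagctttacTTTCACTTTC
TICAM1: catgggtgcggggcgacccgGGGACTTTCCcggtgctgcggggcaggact

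GAAANNGAAA, with a spacer of 2 bases, was present in IFIH1 (3 matches, of which 2 overlap), EIF2AK2 (1 match) and TLR3 (1 match), and in 3.65% of all 27305 promoters. DDX58 held no such match but had GAAANGAAA (3.22% of promoters) and GAAANNNGAAA (2.94%). A GAAA repeat with any of these spacers, 1, 2 or 3 bases, was present in 8.84% of all promoters. GGGANNTTCC was found in DDX58, IFIH1 and TICAM1, and in 1.63% of promoters. The IFIH1 match nearest to the start ended 12 bases before it, while the EIF2AK2 and TLR3 matches spanned the start. This start is that of the RefSeq window. Set against the measured features, the EIF2AK2 match lies inside the gene and the TLR3 match begins at its first base. These letters were not found in the MAVS window or in the 3 ADAR windows. A match describes the letters of the window and was not read as a bound site.

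Expression was given as FPKM, fragments scaled by the length of the transcript and by library size, and 13605 features with a mean of at least 1 FPKM over the 4 libraries were tested, among them all 8 members. Differences are knockdown minus control on log2(FPKM + 1), which understates the change of low genes, tested with limma and adjusted by Benjamini-Hochberg over all tested features. Estimated depth was 74500000 to 75500000 fragments in the knockdown libraries and 68500000 to 71250000 in the controls. ARID1A itself was at 7.05 and 6.13 FPKM in the knockdown libraries and at 11.1 and 11.4 FPKM in the controls. Of 12 markers of colon epithelial cells, 8 had a mean of at least 1 FPKM, whereas CDX1 was at 0 in every library and VIL1, CEACAM5 and GPA33 were below 0.21 FPKM. The epithelial markers summed to 4187 and 4338 FPKM in the knockdown libraries and 3223 and 3114 FPKM in the controls, and 4 of them rose and 2 fell. Among them EPCAM was at 146.9 and 140.8 FPKM in the knockdown, against 311.8 and 312.1 in the controls, and KRT20 at 14.4 and 13.6 FPKM, against 2.01 and 2.42. Of 15 leukocyte markers, 7 were at 0 in every library, PTPRC was at most at 0.00592 FPKM, and their summed level was 4.04 to 4.44 FPKM in the knockdown and 7.26 to 8.44 FPKM in the controls, most of it CD68. Of 11 fibroblast and endothelial markers, 2 (COL1A1 and ACTA2) had a mean of at least 1 FPKM, and the sum was 20.6 to 22.0 FPKM in the knockdown and 14.9 to 15.8 FPKM in the controls. Mitochondrial transcripts took 5.65% to 6.04% of the summed FPKM in the knockdown and 4.29% to 4.34% in the controls, and the part of these marker and mitochondrial differences in the results was not tested.

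Of the 8 members, 5 rose in the ARID1A knockdown (DDX58, IFIH1, TICAM1, EIF2AK2 and ADAR), 1 fell (MAVS) and 2 did not pass the test (DHX58 and TLR3). Across all tested features 37.1% were called, 18.2% as higher in the knockdown and 18.9% as lower. The median log2 change was 0.51 for the members and -0.003 for all tested features. Because the members were chosen with earlier results of these data known, their counts and median are not independent evidence of a rise. The knockdown and control libraries did not overlap for 7 members, 6 of them higher and 1 lower, where 72.3% of tested features did not overlap, 35.8% higher and 36.5% lower in the knockdown. With 2 libraries a group, exact permutation (two-sided) returned p = 0.333 for each of these 7, which is the smallest value possible, and 0.667 for TLR3.

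**Figure D1:**
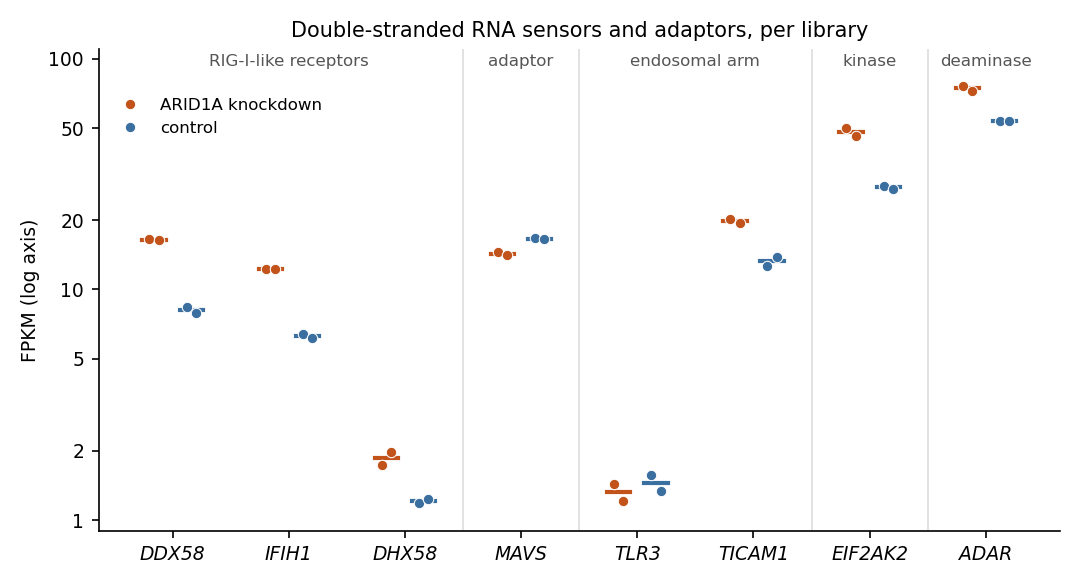
FPKM of the 8 genes on a log axis, with ARID1A knockdown (orange) left of control (blue) for each gene; points are libraries and bars are means of 2. DDX58, IFIH1, DHX58, TICAM1, EIF2AK2 and ADAR sit higher in both knockdown libraries than in either control, MAVS sits lower, and only for TLR3 do the groups overlap.

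The cytosolic helicase genes came first. DDX58, which encodes RIG-I (chromosome 9, 32455302 to 32526208, GRCh38), was at 16.5 and 16.4 FPKM in the knockdown libraries and at 8.40 and 7.89 FPKM in the control libraries. The pairs lay far apart relative to their spread, and the mean of 16.4 ± 0.0909 FPKM in the knockdown was 2.02 times the 8.15 ± 0.356 FPKM in the controls (SD, n = 2 each). The log2 change was 0.93 (SE 0.0536, 95% interval 0.79 to 1.07; limma adjusted p = 0.000989), and 1.44% of tested features had a larger rise. In bulk RNA, more expressing cells and more transcript per cell cannot be told apart.

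IFIH1, which encodes MDA5 (chromosome 2, 162267074 to 162318684), was at 12.3 and 12.2 FPKM in the knockdown libraries, against 6.38 and 6.16 FPKM in the control libraries. Both knockdown values were above both control values, with a ratio of means of 1.95. The log2 change was 0.87 (SE 0.053, 95% interval 0.73 to 1.003; limma adjusted p = 0.00108). The intervals of DDX58 and IFIH1 overlap, and the difference between their changes was not tested. Within a library the IFIH1 to DDX58 ratio was 0.744 and 0.747 in the knockdown and 0.760 and 0.780 in the controls.

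DHX58, which encodes LGP2 (chromosome 17, 42101404 to 42112714), had much lower levels, at 1.73 and 1.98 FPKM in the knockdown libraries and 1.19 and 1.23 FPKM in the control libraries. Its groups did not overlap, and the ratio of means was 1.53, but the log2 change of 0.37 (SE 0.106, 95% interval 0.09 to 0.64) missed the threshold narrowly (limma adjusted p = 0.0523). It passed with median-of-ratios scaling (adjusted p = 0.0497), with quantile normalization (0.0405) and without a variance trend (0.0225). Taking the longest coding transcript of GENCODE 29, 2617 bases, its values rested on about 305 and 346 fragments in the knockdown libraries and about 190 and 204 in the controls, so that counting alone gives an SD of 5.38% to 7.25%. Relative to IFIH1, the DHX58 level was 0.141 and 0.162 in the knockdown and 0.186 and 0.200 in the controls.

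MAVS moved the other way from the helicases that signal through it. The adaptor gene (chromosome 20, 3846799 to 3876123) was at 14.5 and 14.1 FPKM in the knockdown libraries and at 16.7 and 16.5 FPKM in the control libraries. The difference was small but larger than the gap between replicates, with means of 14.3 ± 0.24 and 16.6 ± 0.128 FPKM (SD, n = 2 each). On the log2 scale the change was -0.20 (SE 0.0451, 95% interval -0.32 to -0.08; limma adjusted p = 0.0271). The call did not hold without knockdown replicate 1 (adjusted p = 0.0742) or 2 (0.106), or without control replicate 1 (0.121) or 2 (0.109), while the log2 change stayed between -0.22 and -0.18. It was also lost when no filter on low values was used (adjusted p = 0.0513) and with the replicate number as a block (0.0557).

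The helicase genes were also set against MAVS within each library, where any scaling factor of the library cancels. Summed FPKM of DDX58, IFIH1 and DHX58 was 30.5 in both knockdown libraries and 15.97 and 15.3 in the controls. Divided by the FPKM of MAVS, this sum gave 2.10 and 2.16 in the knockdown and 0.957 and 0.926 in the controls. DDX58 was above MAVS in both knockdown libraries (ratio 1.14 and 1.16) and below it in both controls (0.503 and 0.478). IFIH1 was below MAVS in all 4 libraries, at 0.847 and 0.863 in the knockdown and 0.382 and 0.373 in the controls. These are ratios of transcript level per length and carry no test.

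**Figure D2:**
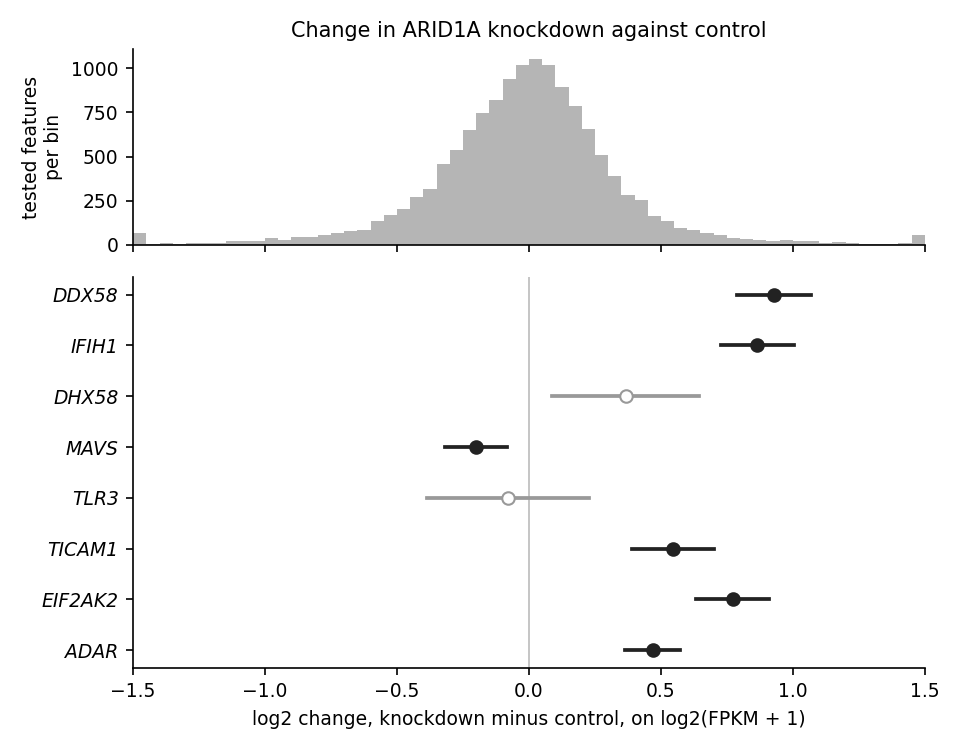
Top, the number of tested features by log2 change (bins of 0.05; features beyond 1.5 in either direction are in the end bins). Bottom, the log2 change of each member, knockdown minus control on log2(FPKM + 1), with its 95% limma interval; filled points passed an adjusted p of 0.05. DDX58 (0.93), IFIH1 (0.87) and EIF2AK2 (0.77) lie in the upper tail, MAVS (-0.20) lies below 0 and the TLR3 interval spans 0.

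Of the endosomal route, the adaptor gene passed the test and the receptor gene did not, and the difference between them was not tested. TLR3 (chromosome 4, 186069152 to 186088069) was at 1.43 and 1.21 FPKM in the knockdown libraries and at 1.57 and 1.34 FPKM in the control libraries. The groups overlapped, and replicates of a group differed by more than the group means did. The log2 change was -0.08 (SE 0.118, 95% interval -0.39 to 0.23, limma adjusted p = 0.63). The changes of the 6 members with a positive log2 change all lie above this interval, but the interval of DHX58 (0.09 to 0.64) overlaps it. With its longest coding transcript of 6015 bases, TLR3 rested on about 621 and 519 fragments in the knockdown libraries and about 616 and 546 in the controls.

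TICAM1, the adaptor of TLR3 (chromosome 19, 4815932 to 4831704), was at 20.1 and 19.5 FPKM in the knockdown libraries, against 12.7 and 13.9 FPKM in the control libraries. Its groups were well separated, with a ratio of means of 1.49. The log2 change was 0.55 (SE 0.0596, 95% interval 0.39 to 0.70; limma adjusted p = 0.00414). In FPKM, TICAM1 exceeded its receptor gene 14.0-fold and 16.1-fold in the knockdown libraries and 8.07-fold and 10.4-fold in the controls. TLR3 was the member with the lowest mean over the 4 libraries, and 5.01% of tested features had a lower one.

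Both effector genes rose. EIF2AK2, which encodes PKR (chromosome 2, 37099210 to 37157065), was at 49.9 and 46.2 FPKM in the knockdown libraries and at 28.2 and 27.2 FPKM in the control libraries. Every knockdown value was above every control value, and the ratio of means was 1.73. This gave a log2 change of 0.77 (SE 0.053, 95% interval 0.63 to 0.91; limma adjusted p = 0.00138), and 2.06% of tested features had a larger rise. The end of the feature overlaps that of GPATCH11 by 35 bases, and GPATCH11 was at 1.93 and 2.15 FPKM in the knockdown libraries and at 2.28 and 3.06 FPKM in the controls. Apart from a feature inside EIF2AK2 at 0.0888 FPKM or less, no other feature of the tables overlapped a member.

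ADAR, the editing enzyme gene (chromosome 1, 154582057 to 154628013), was the most abundant member, at 76.3 and 72.8 FPKM in the knockdown libraries and at 53.6 and 53.5 FPKM in the control libraries. The controls agreed closely and both knockdown libraries lay above them, with a ratio of means of 1.39. This gave a log2 change of 0.47 (SE 0.0401, 95% interval 0.37 to 0.57; limma adjusted p = 0.00224). Its values are per gene, so the interferon-inducible long isoform and the constitutive short isoform known for ADAR cannot be told apart. The EIF2AK2 to ADAR ratio was 0.654 and 0.634 in the knockdown libraries, against 0.526 and 0.509 in the control libraries.

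**Figure D3:**
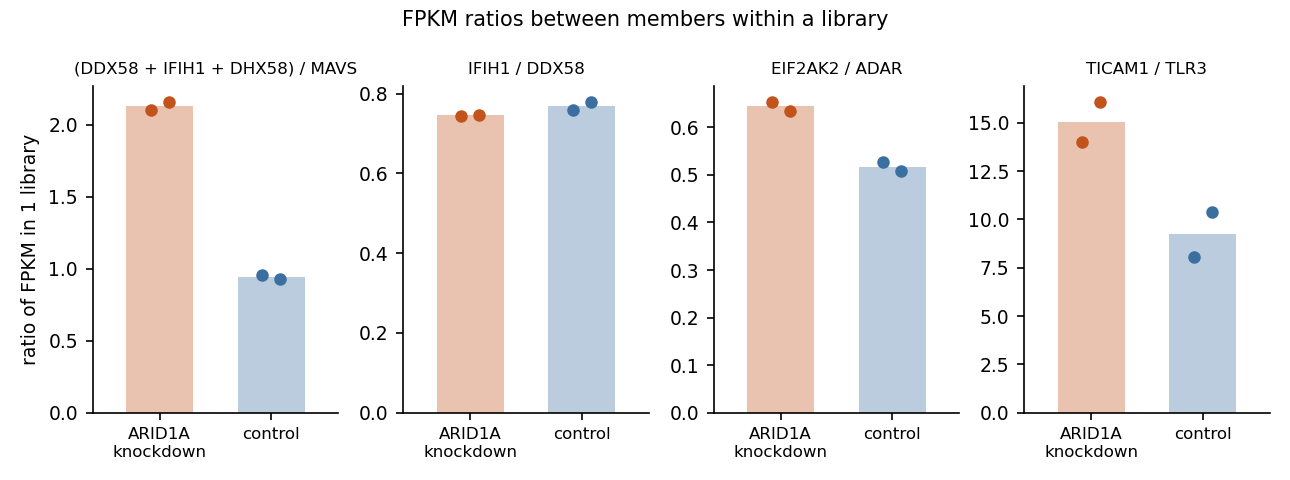
FPKM ratios between members within each library, with ARID1A knockdown (orange) left of control (blue); points are libraries, bars are means of 2 and every axis starts at 0. The ratio of the summed helicase genes to MAVS is 2.10 and 2.16 in the knockdown and 0.957 and 0.926 in the controls, while the IFIH1 to DDX58 ratio stays between 0.744 and 0.780 in all 4 libraries.

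The order of the members by level differed between the groups. In the knockdown libraries it ran ADAR (74.6 FPKM), EIF2AK2 (48.0), TICAM1 (19.8), DDX58 (16.4), MAVS (14.3), IFIH1 (12.2), DHX58 (1.85) and TLR3 (1.32). In the controls it ran ADAR (53.5 FPKM), EIF2AK2 (27.7), MAVS (16.6), TICAM1 (13.3), DDX58 (8.15), IFIH1 (6.27), TLR3 (1.45) and DHX58 (1.21). MAVS thus stood at rank 5 in the knockdown, behind TICAM1 and DDX58, and at rank 3 in the controls. In the knockdown each gap to the next gene was more than 2 times the larger SD of the pair. In the controls this held for every neighbouring pair except TLR3 and DHX58, whose means were 0.243 FPKM apart with an SD of up to 0.164 FPKM.

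The profiles of the members over the 4 libraries were set beside those of all tested features, by the Euclidean distance between library-centred log2(FPKM + 1) values. DDX58 was the 21st nearest feature to IFIH1 (distance 0.0699) and EIF2AK2 the 58th (0.118). TICAM1 stood at place 445, ADAR at 631, DHX58 at 1149, TLR3 at 8143 and MAVS at 10005. The 5 nearest named features were PCSK7 (0.0184), SLK (0.0356), S100A13 (0.0357), RARG (0.036) and ARHGAP18 (0.0362). The locus of PCSK7 overlaps TAGLN by 3128 bases, and that of S100A13 overlaps AL162258.1 by 5029 and S100A1 by 3435 bases. With 4 libraries in 2 groups, a small distance means mainly a change of similar size, and these distances carry no test.

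The genes around the members were read from 7 pathway lists, which together held 121 tested genes when each was counted once. Of these 39 rose and 21 fell, 49.6% called, beside 37.1% of all tested features. Each list is given by its counts and its median log2 change, without a list test. The loci of ATG12, SMURF2 and DICER1, named below, overlap AP3S1, CEP95 and DICER1-AS1 by at most 366 bases. Over the 4 libraries these overlapping features had means of 331.6, 22.8 and 2.14 FPKM, in that order.

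Of 29 tested regulators of RIG-I, MDA5 and MAVS, 5 rose, 5 fell and 19 did not pass, with a median log2 change of 0.04. The share called, 34.5%, was near the 37.1% of all tested features. ATG12, part of an autophagy conjugate, rose (153 and 150.3 FPKM in the knockdown, 92.8 and 91.8 in the controls; limma adjusted p = 0.000553). USP15, a deubiquitinase, rose to 36.4 ± 2.07 FPKM in the knockdown, against 24.2 ± 1.04 in the controls (adjusted p = 0.00364; SD, n = 2 each). SMURF2, a ubiquitin ligase, fell to 45.98 ± 1.71 FPKM in the knockdown, against 78.5 ± 2.02 in the controls (adjusted p = 0.00101). TRIM25, the ubiquitin ligase best known for activating RIG-I and chosen after its values were seen, was at 54.6 and 52.6 FPKM in the knockdown and 49.9 and 52.1 in the controls (adjusted p = 0.26). Without knockdown replicate 1 or 2, 6 and 5 genes of this list were called, and without control replicate 1 or 2, 4 and 4.

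Of 26 tested signalling genes below MAVS and TICAM1, 11 rose, 2 fell and 13 did not pass, with a median log2 change of 0.14. In this list 13 of 26 were called, beside 37.1% of all tested features (18.2% as higher in the knockdown and 18.9% as lower). IRF7, an interferon-induced transcription factor of interferon genes, rose most (29.9 and 32.7 FPKM in the knockdown, 12.7 and 13.5 in the controls; log2 change 1.19, limma adjusted p = 0.000797). TANK, a scaffold of the TBK1 kinase, rose to 84.0 ± 0.0775 FPKM in the knockdown, against 51.3 ± 0.364 in the controls (adjusted p = 0.000615). TRAF5 fell to 2.41 ± 0.0604 FPKM, against 3.98 ± 0.333 in the controls (adjusted p = 0.011; 0.0625 without control replicate 2 and 0.0591 without a filter). Of the genes added with their values in view, TBK1 rose (23.7 and 23.9 FPKM in the knockdown, 17.0 and 18.4 in the controls; adjusted p = 0.00665), and IRF3 was at 44.0 and 43.1 FPKM in the knockdown and 40.8 and 41.95 in the controls (adjusted p = 0.207). Without control replicate 1, 6 genes of this list were called, and without control replicate 2, 5.

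Of 13 tested genes of the TLR3 route, 1 rose, 4 fell and 8 did not pass, with a median log2 change of -0.16. The share called, 38.5%, was near the 37.1% of all tested features. UNC93B1, the chaperone that carries endosomal Toll-like receptors, rose to 43.3 ± 1.58 FPKM in the knockdown, against 34.5 ± 0.428 in the controls (limma adjusted p = 0.00741; 0.0534 and 0.0606 without control replicate 1 or 2). The protease gene CTSB fell to 167 ± 0.594 FPKM, against 267.9 ± 0.0375 in the controls (adjusted p = 0.000526), and the scavenger receptor family gene SCARA3 to 5.56 ± 0.314 FPKM, against 10.5 ± 1.08 (adjusted p = 0.00402). Without knockdown replicate 1, 3 genes of this list were called, and without control replicate 1 or 2, 2 and 2.

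Of 18 tested genes of the PKR and eIF2 route, 6 rose, 3 fell and 9 did not pass, with a median log2 change of 0.05. In this list 9 of 18 were called, beside 37.1% of all tested features (18.2% as higher in the knockdown and 18.9% as lower). EIF2B3, a subunit of the eIF2B exchange factor, rose to 15.5 ± 1.92 FPKM in the knockdown, against 10.4 ± 0.694 in the controls (limma adjusted p = 0.0163; 0.0925 and 0.0657 without control replicate 1 or 2, 0.0805 without a filter). TARBP2, an inhibitor of PKR, rose to 26.1 ± 2.03 FPKM, against 19.9 ± 1.56 in the controls (adjusted p = 0.0238; 0.0879 without knockdown replicate 2, 0.108 and 0.0596 without control replicate 1 or 2, 0.098 without a filter). EIF2S3, a subunit of eIF2, fell to 105.7 ± 1.86 FPKM, against 142 ± 1.88 in the controls (adjusted p = 0.00211). The other eIF2 kinase genes, chosen after their values were seen, did not pass: EIF2AK1 (adjusted p = 0.971), EIF2AK3 (0.786) and EIF2AK4 (0.585). Without knockdown replicate 2, 5 genes of this list were called, and without control replicate 1 or 2, 2 and 2.

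The 2-5A synthetases make a messenger molecule when they bind double-stranded RNA. Of 5 tested genes of this list 4 rose and 0 fell, with a median log2 change of 1.25. The share called was 80.0%, beside 37.1% of all tested features. OAS1 was at 29.6 and 31.5 FPKM in the knockdown and 5.37 and 5.35 in the controls (log2 change 2.31, limma adjusted p = 0.000208). OAS3 was at 38.8 and 37.6 FPKM in the knockdown, against 12.5 and 13.2 in the controls (log2 change 1.5, adjusted p = 0.00035), and the related gene OASL at 9.20 and 8.71 FPKM, against 3.14 and 3.27 (1.25, adjusted p = 0.000792). OASL is also counted among the IRF3-induced genes below, and its change is the list median given here. This list too was chosen with earlier results of these data known. OAS2 was below the filter, at 0.0969 FPKM or less in every library.

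Of 29 other tested genes for proteins that bind, unwind or process double-stranded RNA, 9 rose, 6 fell and 14 did not pass, with a median log2 change of 0.07. In this list 51.7% were called, beside 37.1% of all tested features. The helicase gene DDX60 was at 7.95 and 6.78 FPKM in the knockdown and 3.07 and 1.99 in the controls (log2 change 1.26, limma adjusted p = 0.00704; 0.0522 without a filter on low values). Its neighbour by name, DDX60L, rose to 40.4 ± 1.48 FPKM, against 26.4 ± 0.362 in the controls (adjusted p = 0.00167), at a locus that overlaps PALLD. The overlap is 40735 bases, and PALLD had a mean of 64.5 FPKM over the 4 libraries. DICER1, the nuclease of microRNA maturation, rose to 6.75 ± 0.141 FPKM, against 4.71 ± 0.262 (adjusted p = 0.00988; 0.0564 without knockdown replicate 2, 0.0597 without control replicate 2). ADARB1, a relative of ADAR chosen after its values were seen, did not pass (4.84 and 4.61 FPKM in the knockdown, 5.67 and 4.29 in the controls; adjusted p = 0.764). The sensor gene ZBP1 was listed at 0 in all 4 libraries. Without knockdown replicate 1 or 2, 8 and 6 genes of this list were called, and without control replicate 1 or 2, 5 and 2.

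**Figure D4:**
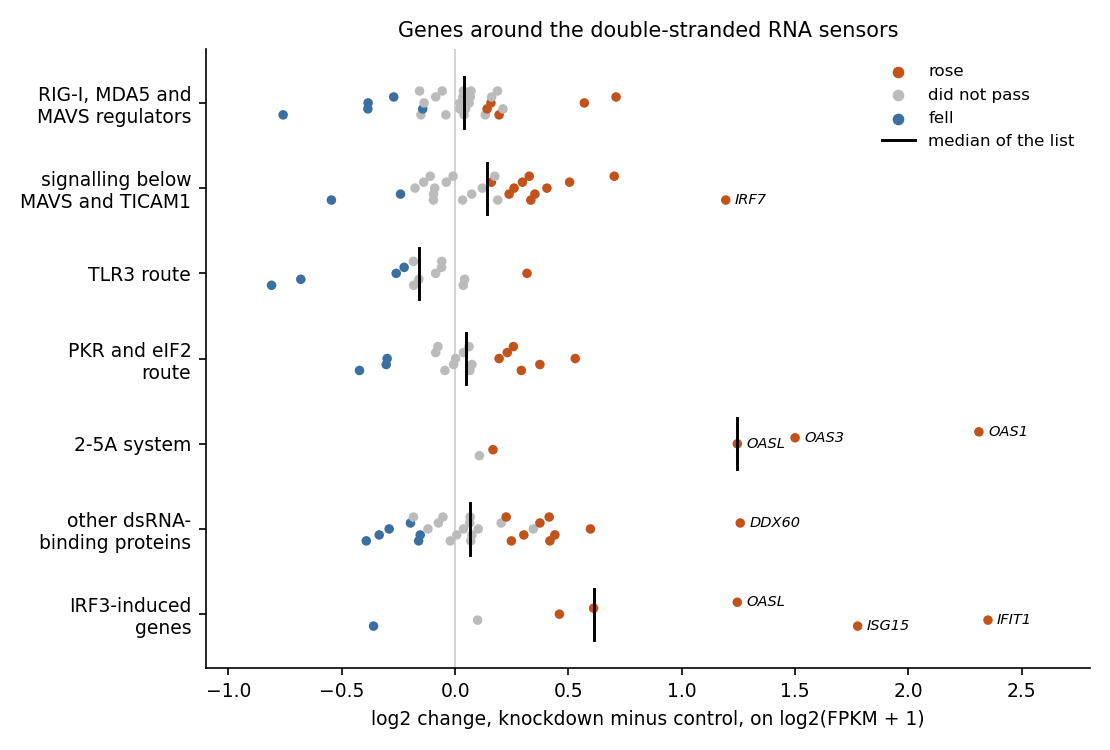
Log2 change of each tested gene in the 7 lists around the members, knockdown minus control on log2(FPKM + 1); orange rose, blue fell, grey did not pass, and black bars are list medians. OAS1 (2.31) and IFIT1 (2.35) lie farthest to the right, and the TLR3 route is the list with a median below 0 (-0.16).

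At the end of the pathway stand interferon genes and genes that IRF3 can induce directly. Of 7 tested, 5 rose, 1 fell (PMAIP1) and 1 did not pass (IFIT2), both named after their values were seen, with a median log2 change of 0.61. Called genes made up 85.7% of those tested, beside 37.1% of all tested features. The list shares members with interferon-stimulated genes whose rise was already known from these libraries, so its direction is not independent evidence. IFIT1 was at 28.0 and 27.2 FPKM in the knockdown and 4.66 and 4.55 in the controls (log2 change 2.35, limma adjusted p = 0.000174). Its locus lies fully within that of LIPA (13942 bases), which had a mean of 25.3 FPKM over the 4 libraries. ISG15 was at 1010 and 1147 FPKM in the knockdown, against 318.9 and 308.5 in the controls (1.78, adjusted p = 0.000386). The interferon genes were below the filter. IFNB1 was listed at 0 in both knockdown libraries and at 0.0266 and 0 FPKM in the controls. IFNL1 was at 0.218 and 0.0841 FPKM in the knockdown and 0.181 and 0 in the controls, IFNL2 at 0.207 and 0.0915 against 0 and 0, and IFNL3 at 0.298 and 0.276 against 0.140 and 0. The other 4 genes of this list were also below the filter. RSAD2 was at 0.690 and 0.898 FPKM in the knockdown and 0.0696 and 0.0402 in the controls, and CCL5 at 0.288 and 0.382 against 0.204 and 0.179. CXCL11 was at 0.0291 and 0.0675 FPKM in the knockdown and 0 and 0.0117 in the controls, and CXCL10 was listed at 0 in both knockdown libraries and at 0.0164 and 0.0468 FPKM in the controls.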

How the data were processed

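Libraries of HCT116 RNA were prepared with a NEBNext Ultra kit, per the labels' protocols. For each library the authors deposited a table of FPKM; alignment with STAR and quantification with Cufflinks on GRCh38 are per the submitters' processing notes. Versions, annotation and strand setting were not given in the sources used here, so overlapping genes cannot be told apart. Of 60811 rows, 45 second copies of pseudoautosomal genes were dropped, and 2347 values under 1e-09 were set to 0. FPKM values are not counts: log2(FPKM + 1) values entered limma 3.58.1 (R 4.3.3; lmFit, then eBayes, trend on) for features with a mean of at least 1 FPKM, and the fit was tested on simulated data. Benjamini-Hochberg adjusted p under 0.05 was the call. Starts are printed with 1 added to those in the files.

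Depth was estimated from low FPKM of genes with 1 GENCODE 29 transcript: up to 8 fragments, 82.6% to 85.5% of values were whole within 0.1 fragment, against 21.9% to 24.96% with scrambled lengths. Fragment numbers per gene are approximate and cover counting error only.

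Members and lists were chosen with earlier results of these data known. Named genes are the members, ARID1A, the interferon genes, up to 3 called genes of each list by absolute log2 change, and the 5 features nearest to IFIH1. Any other tested list gene is marked where it is named. List genes below the filter (OAS2, ZBP1, RSAD2, CCL5, CXCL11 and CXCL10), cell markers and overlapping features are named outside this rule. The lists were 29 regulators of RIG-I, MDA5 and MAVS, 26 signalling genes, 18 of the TLR3 route, 18 of the PKR and eIF2 route, 6 of the 2-5A system (1 further gene is not reported here), 32 other double-stranded RNA genes, 15 IRF3-induced or interferon genes, and 3 lists of cell markers. Alternatives changed the pseudocount, filter, scaling, variance trend, replicate block and libraries used.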

Additional observations from a re-analysis of the deposited data

How the results depend on the processing

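The calls of DDX58, IFIH1, TICAM1, EIF2AK2, ADAR and ARID1A held under each alternative run, and no result changed sign. DHX58 passed with median-of-ratios scaling (log2 change 0.37), quantile normalization (0.41) and no variance trend (0.37). MAVS (-0.20) did not pass without a filter. Replicate numbers did not pair the libraries (correlation of deviations from the group means -0.00993); with the replicate block, 4126 features were called in place of 5046, MAVS had a log2 change of -0.20 and an adjusted p of 0.0557, and 6 regulators of RIG-I, MDA5 and MAVS were called in place of 10. Without a filter, 2786 features were called, and list counts were 5 (regulators of RIG-I, MDA5 and MAVS; 6 with a filter of 0.1 FPKM), 7 (signalling), 3 (TLR3 route), 3 (PKR route) and 6 (other double-stranded RNA genes).

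With any 1 library left out, 1900 to 3259 features were called (3259 and 3001 without knockdown replicate 1 or 2, 1900 and 1990 without control replicate 1 or 2) and 5 members. Log2 changes ran from 0.89 to 0.97 (DDX58), 0.84 to 0.89 (IFIH1), 0.30 to 0.43 (DHX58), -0.22 to -0.18 (MAVS), 0.48 to 0.60 (TICAM1), -0.15 to -0.01 (TLR3), 0.72 to 0.83 (EIF2AK2), 0.44 to 0.50 (ADAR) and -0.78 to -0.60 (ARID1A). List counts ran from 4 to 6 (regulators), 5 to 9 (signalling), 2 to 4 (TLR3 route), 2 to 6 (PKR route), 3 to 4 (2-5A), 2 to 8 (other double-stranded RNA genes) and 4 to 5 (IRF3-induced). The lone library left in a group is assumed to vary like the others. The cause of these losses was not tested beyond the fewer libraries used. DHX58 and TLR3 gave no value with a filter of 5 FPKM.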
